A study of Mus musculus with 6 samples.

Results

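Orphan and adhesion G protein-coupled receptor genes were compared between mouse neural stem cells that were positive and negative for Spot14 GFP, where GFP is green fluorescent protein. The genes were chosen by name, as those whose symbol starts with Gpr and a digit, Gprc5, Adgr or Celsr. They numbered 90 of the 18193 genes that a probe set on the array names alone, and 144 probe sets carried them. Each gene was read from its brightest probe set over all arrays. The RNA of Spot14 GFP positive cells (3 arrays) and of Spot14 GFP negative cells (3 arrays) was hybridised to Affymetrix mouse expression arrays. Both groups are labelled as neural stem cells of the mouse, and the design text calls the samples of a group biological replicates. Thrsp encodes Spot14, a protein known from tissues that make fat. The title of the series places the cells in the context of fatty acid synthesis in adult neural stem cells. The reporter construct, the strain, the age and the way the cells were kept and separated are not given in the sources used here. As nothing says that the replicates came from separate cultures or animals, p-values measure the spread between these arrays.

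G protein-coupled receptors are multi-pass membrane proteins that pass an outside signal to heterotrimeric G proteins, which then act on cyclic AMP, calcium or the cytoskeleton. Orphan receptors are those without an agreed natural ligand, and several that keep a Gpr name have since gained a proposed one. Adhesion receptors carry long extracellular regions that bind neighbouring cells or matrix, and many cut themselves near the membrane and are then switched on by a tethered stretch of their own chain. Some proteins with a Gpr name sit in the Golgi or in lysosomes and are receptors in name only.

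Of the 90 genes, 35 had a mean above log2 4 over the 6 arrays, on the authors' normalized log2 scale on which values near 2 are background. The same 35 reached log2 4 on at least 3 of 6 arrays and were tested. By group, 34 had a mean above log2 4 in GFP positive cells and 36 in GFP negative cells. Among the 35, limma found 5 that were higher in GFP positive cells and 0 that were lower (adjusted p under 0.05). Before adjustment 8 were higher and 2 lower. Over all 10531 genes tested 4.46% passed, 2.35% as higher and 2.11% as lower, and before adjustment 9.92% and 8.28%. The 5 were Adgra1, Gpr146, Gpr155, Gpr137b and its pseudogene Gpr137b-ps, each 1.77-fold to 2.19-fold higher. Each of these calls was lost when any array other than GFP negative replicate 3 was left out. In RNA of whole cell populations, more cells that express a gene and more RNA per cell cannot be told apart.

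**Figure D1:**
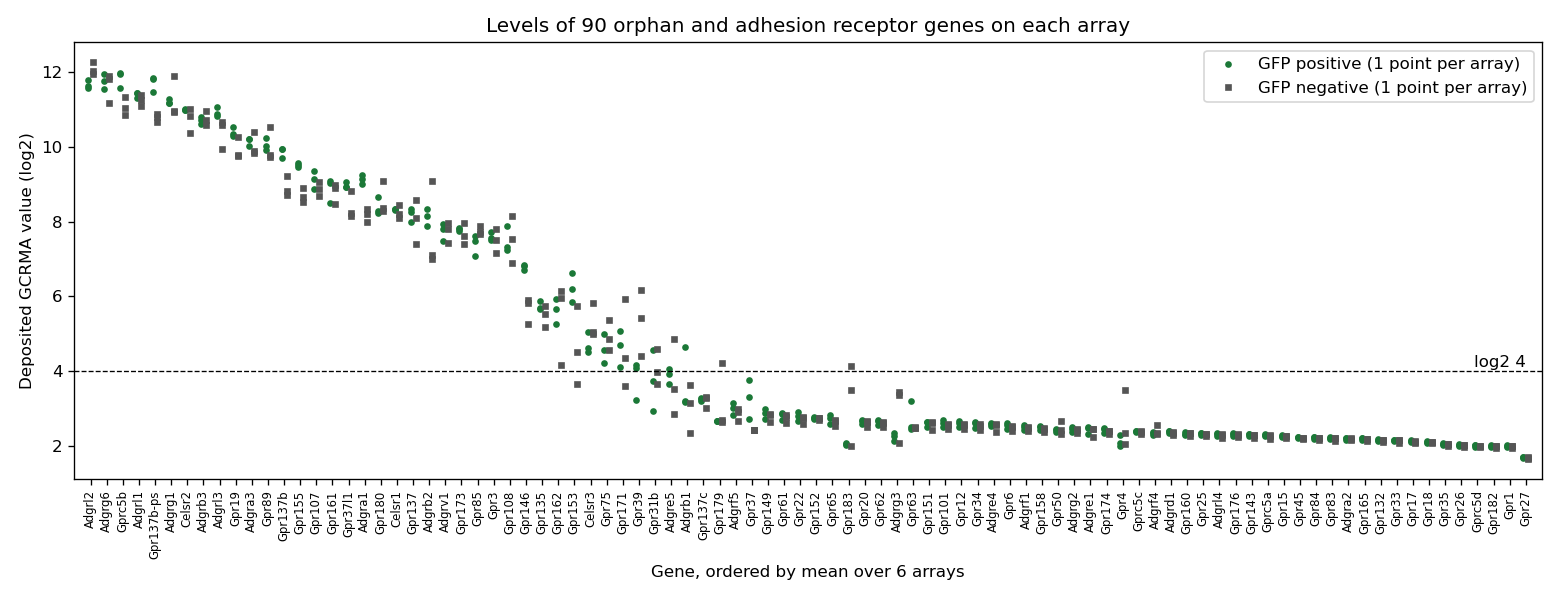
Deposited log2 value (vertical axis) of the 90 genes on each array, ordered by the mean over 6 arrays (horizontal axis). Circles are GFP positive arrays, squares GFP negative arrays, and the dashed line marks log2 4; 35 genes have a mean above it, and most of the others lie close to log2 2.

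The arrays themselves set limits. The Thrsp signal was 14.32, 14.20 and 14.13 on GFP positive arrays and 13.58, 13.41 and 13.71 on GFP negative arrays, which did not overlap (limma adjusted p = 0.0893), so it checks the labels only in direction. GFP negative replicate 3 stood apart from its group on the second principal component of the tested genes, at 36.8 against −31.9 and −33.8. The excess of 3′ over 5′ signal of Gapdh was 1.23 to 1.32 on GFP positive arrays and 1.14 to 2.33 on GFP negative arrays, highest on GFP negative replicate 2. Of 13 stem cell markers on the array 12 were measured, Sox2, Nes and Gfap among them, and Prom1 was not. Astrocyte markers were higher in GFP positive cells (5 of 10 rose, summed linear signal 56012 to 62707 against 31266 to 36119), and markers of dividing cells were lower (10 of 11 fell, 936 to 1496 against 3349 to 6529). Such marker differences move with the comparison, and their part in the receptor differences was not tested. Of 11 microglia markers 9 were under the level for testing, and the other 2 did not pass. Of 12 endothelial and pericyte markers 10 were under it, and Acta2, a smooth muscle actin, was lower in GFP positive cells (3.96 ± 0.216 against 5.24 ± 0.448, SD, n = 3 each; −1.29, limma adjusted p = 0.0413). The GFP positive mean of Acta2 lay under log2 4, so the size depends on the background correction. Of 11 neuron markers 8 were under the level for testing, Dcx and Tubb3 included. Map2 (mean 12.63), Gad1 (8.21) and Neurod1 (5.35) were measured and did not pass, Neurod1 at −1.06 (limma adjusted p = 0.0796). Of 11 markers of the oligodendrocyte lineage 5 were measured and none passed, with 2 lower before adjustment. Olig1 (12.41), Olig2 (12.68) and Cnp (12.72) were bright in these cells, and Cspg4, of oligodendrocyte precursors, differed by −1.31 (limma adjusted p = 0.134). Of 8 ependymal markers 4 were measured and none passed, with 4 positive differences and 1 higher before adjustment. The part of these markers in the receptor differences was not tested either.

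Most of the genes read near background. Of the 55 genes not tested, 50 stayed under log2 4 on all 6 arrays and 44 under log2 3, and the remaining 5 reached log2 4 on only 1 or 2 arrays. The genes just under the level were Gpr31b (mean 3.91) and Adgre5 (3.82), and those just above it were Gpr39 (4.58) and Gpr171 (4.63). Near background the values hardly vary, and no gene under log2 3 on all arrays differed by more than 0.10 between the groups. In all, 38.9% of the genes were tested, against 57.9% of all genes on the array.

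The genes not tested include many known from other cells. None of the 3 adhesion E receptors was tested, among them Adgre1, the macrophage antigen F4/80 (mean 2.41), and Adgre5, the leukocyte antigen CD97. None of the 4 adhesion D and F receptors (Adgrd1, Adgrf1, Adgrf4 and Adgrf5) was tested, with means of 2.36 to 2.92. Adgrl4 (2.30) and Adgra2 (2.19), both known from blood vessels, were at background. So were Gpr17 (2.12), of oligodendrocyte precursors, Gpr34 (2.55), of microglia, and Gpr84 (2.21), of activated myeloid cells. All 8 genes grouped as sensors of lipids and metabolites (Gpr17, Gpr18, Gpr31b, Gpr34, Gpr35, Gpr84, Gpr174 and Gpr183) and all 3 proton sensors on the array (Gpr4, Gpr65 and Gpr132) were not tested. Among receptors known from the brain, Gpr12 (2.57), Gpr6 (2.52), Gpr26 (2.01), Gpr158 (2.46), Gpr22 (2.75), Gpr61 (2.77), Gpr62 (2.61), Gpr63 (2.61), Gpr83 (2.19), Gpr101 (2.57), Gpr149 (2.81) and Gpr151 (2.58) were not tested. The rest not tested were Adgrb1, Adgrg2, Adgrg3, Adgre4, Gpr1, Gpr15, Gpr20, Gpr25, Gpr27, Gpr33, Gpr37, Gpr45, Gpr50, Gpr137c, Gpr143, Gpr152, Gpr160, Gpr165, Gpr176, Gpr179, Gpr182, Gprc5a, Gprc5c and Gprc5d, with means of 1.68 to 3.36. A few of the dim genes varied between arrays. Gpr183, an oxysterol receptor of immune cells, read 2.02, 2.05 and 2.09 on GFP positive arrays and 4.15, 3.49 and 1.99 on GFP negative arrays. Gpr37, known from oligodendrocytes, read 3.77, 3.31 and 2.73 on GFP positive arrays and 2.43, 2.42 and 2.42 on GFP negative arrays. Gpr37 was higher on all 3 GFP positive arrays but under log2 4 throughout, and neither gene was tested.

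Levels were highest among the adhesion receptors and a few others. Of the 35 tested genes 12 had a mean above log2 10, 15 between log2 7 and 10, and 8 between log2 4 and 7. The 10 brightest were, in falling order, Adgrl2 (11.88), Adgrg6 (11.69), Gprc5b (11.46), Adgrl1 (11.33), Gpr137b-ps (11.25), Adgrg1 (11.23), Celsr2 (10.88), Adgrb3 (10.74), Adgrl3 (10.67) and Gpr19 (10.17). Of these, 7 are adhesion receptors. Probe sets differ in how they bind, so the order describes signals and not amounts of RNA. The median level of the tested genes was 8.66, against 8.93 over all genes tested.

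**Figure D2:**
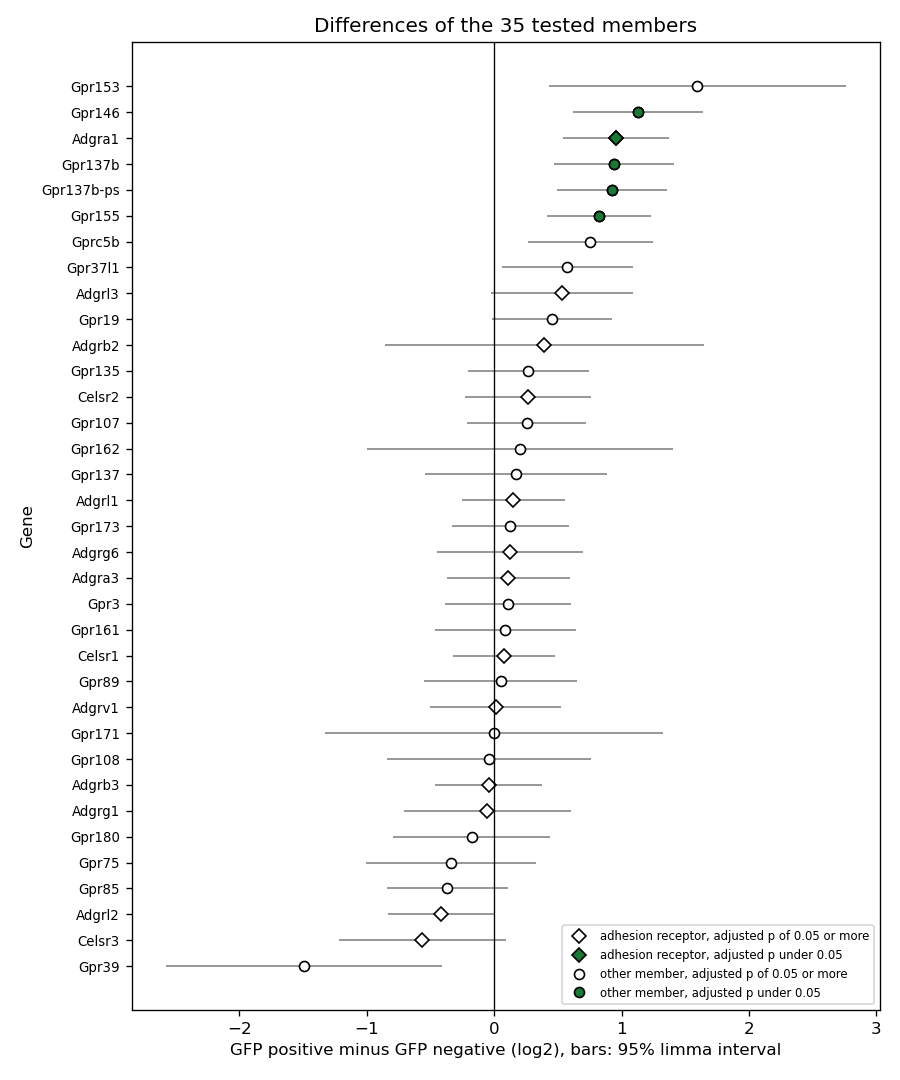
Difference of GFP positive minus GFP negative (log2, horizontal axis) for the 35 tested genes (vertical axis), with 95% limma intervals as bars. Filled symbols passed the adjusted threshold, diamonds are adhesion receptors and circles the others; the 5 filled symbols all lie to the right of 0.

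Promoters of the called genes are shown. These genes were chosen for being higher in GFP positive cells, so their shared direction is no sign of shared regulation. Of the 5, Gpr155, Adgra1 and Gpr146 had an entry in the RefSeq promoter table (GRCm38.p6), and Gpr137b and Gpr137b-ps had none. The 250 bases before the most upstream start in the table are given 5′ to 3′ on the gene's strand. Capitals mark matches on either strand to the GC box (GGGCGG), the E-box (CACGTG), the TATA box (TATAAA) or a nuclear receptor half-site (AGGTCA), of which overlapping GC boxes run together. Gpr155 lies at chr2:73386481-73386730 on the minus strand, Adgra1 at chr7:139833924-139834173 on the plus strand and Gpr146, with 3 starts in the table, at chr5:139377447-139377696 on the plus strand.
Gpr155: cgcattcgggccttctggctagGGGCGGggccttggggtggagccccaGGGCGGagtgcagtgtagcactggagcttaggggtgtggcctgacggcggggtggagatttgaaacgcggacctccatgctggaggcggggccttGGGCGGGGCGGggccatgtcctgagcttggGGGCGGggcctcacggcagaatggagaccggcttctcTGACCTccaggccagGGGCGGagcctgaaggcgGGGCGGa
Adgra1: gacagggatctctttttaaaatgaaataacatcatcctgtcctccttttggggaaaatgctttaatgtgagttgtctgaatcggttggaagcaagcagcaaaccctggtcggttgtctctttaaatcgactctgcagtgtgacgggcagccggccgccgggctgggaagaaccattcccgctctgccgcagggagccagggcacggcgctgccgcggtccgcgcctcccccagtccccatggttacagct
Gpr146: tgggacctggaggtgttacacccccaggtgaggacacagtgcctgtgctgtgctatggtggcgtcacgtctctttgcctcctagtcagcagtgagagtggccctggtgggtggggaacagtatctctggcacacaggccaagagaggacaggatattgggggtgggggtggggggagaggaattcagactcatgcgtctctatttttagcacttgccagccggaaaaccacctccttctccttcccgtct
The Gpr155 stretch held 7 GC boxes and 1 half-site, with a GC content of 70.4%. The Adgra1 and Gpr146 stretches held none of these letters, with a GC content of 56.4% and 57.6%, against a median of 52.4% over all 32851 starts of the table. No motif searched was thus common to the 3 stretches. Over all starts 32.7% held a GC box, 6.02% the E-box, 12.4% the TATA box and 14.0% the half-site. Over the 43 starts of the 30 tested genes with an entry, 48.8% held a GC box, 11.6% the half-site and 6.98% the TATA box, and 0 held the E-box. A match describes the letters and is not evidence of a bound site.

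A further list grouped genes as multi-pass proteins of organelles, such as lysosomes and the Golgi, and also holds the pseudogene Gpr137b-ps. In this list Gpr155 and Gpr137b passed. So did the pseudogene, whose signal cannot be told apart from that of Gpr137b. Of 10 such genes on the array 8 were tested, 3 rose, with 1 signal counted as 2 genes, 0 fell, and the median difference was 0.21, against 0.0049 over all genes tested, of which 2.35% were higher. Gpr155, a lysosomal cholesterol sensor that signals to the growth kinase complex mTORC1, read 9.51, 9.47 and 9.57 on GFP positive arrays and 8.90, 8.53 and 8.65 on GFP negative arrays. Every GFP positive array lay above every GFP negative one. Gpr155 averaged 9.52 ± 0.053 in GFP positive and 8.69 ± 0.185 in GFP negative cells (SD, n = 3 each). This is a difference of 0.82 (SE 0.175, 95% interval 0.41 to 1.23) or 1.77-fold (limma adjusted p = 0.0463). The Gpr155 call ended in a fit of all probe sets (adjusted p = 0.0699) and in one without probe sets of cross-hybridising suffix (0.0508).

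Gpr137b, a lysosomal membrane protein also linked to mTORC1, read 9.96, 9.70 and 9.94 on GFP positive arrays and 8.82, 8.72 and 9.23 on GFP negative arrays. Gpr137b averaged 9.87 ± 0.143 in GFP positive and 8.92 ± 0.268 in GFP negative cells (SD, n = 3 each), so that it was 1.92-fold higher (0.94, SE 0.202, limma adjusted p = 0.0472). Gpr137b-ps is annotated as its pseudogene. It read 11.46, 11.85 and 11.81 on GFP positive arrays and 10.66, 10.88 and 10.81 on GFP negative arrays (0.93, SE 0.185, limma adjusted p = 0.0389). The groups were apart for both genes. The 2 genes are copies of each other and another 4 probe sets name both, so their signals cannot be told apart and the 2 calls are not independent. These 4 probe sets were 0.85 to 1.05 higher in GFP positive cells, and the groups were apart on 3 of them. The 4 probe sets that name Gpr137b alone differed by 0.94 to 1.35. In a fit of all probe sets 1 of these 4 passed (adjusted p = 0.0398), and Gpr137b-ps did not (0.0598). The Gpr137b call also ended without a filter on low values (0.0696). Without probe sets whose suffix marks possible cross-hybridisation, Gpr137b differed by 1.03 and passed (limma adjusted p = 0.0268), and Gpr137b-ps had no value.

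The other tested genes of this list did not pass. Gpr89, the Golgi pH regulator, averaged 10.07 ± 0.17 in GFP positive and 10.02 ± 0.45 in GFP negative cells (SD, n = 3 each; 95% interval of the difference −0.55 to 0.65). Gpr107, which works in transport between Golgi and endosomes, differed by 0.25 (interval −0.22 to 0.72), or by −0.11 at its other probe set above background. Gpr108, its paralogue, differed by −0.04, Gpr137 by 0.17 and Gpr180 by −0.18. Gpr137, a relative of Gpr137b, had an interval of −0.54 to 0.89, whose upper end lies just under the 0.94 of Gpr137b. The difference between these 2 differences was not tested.

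**Figure D3:**
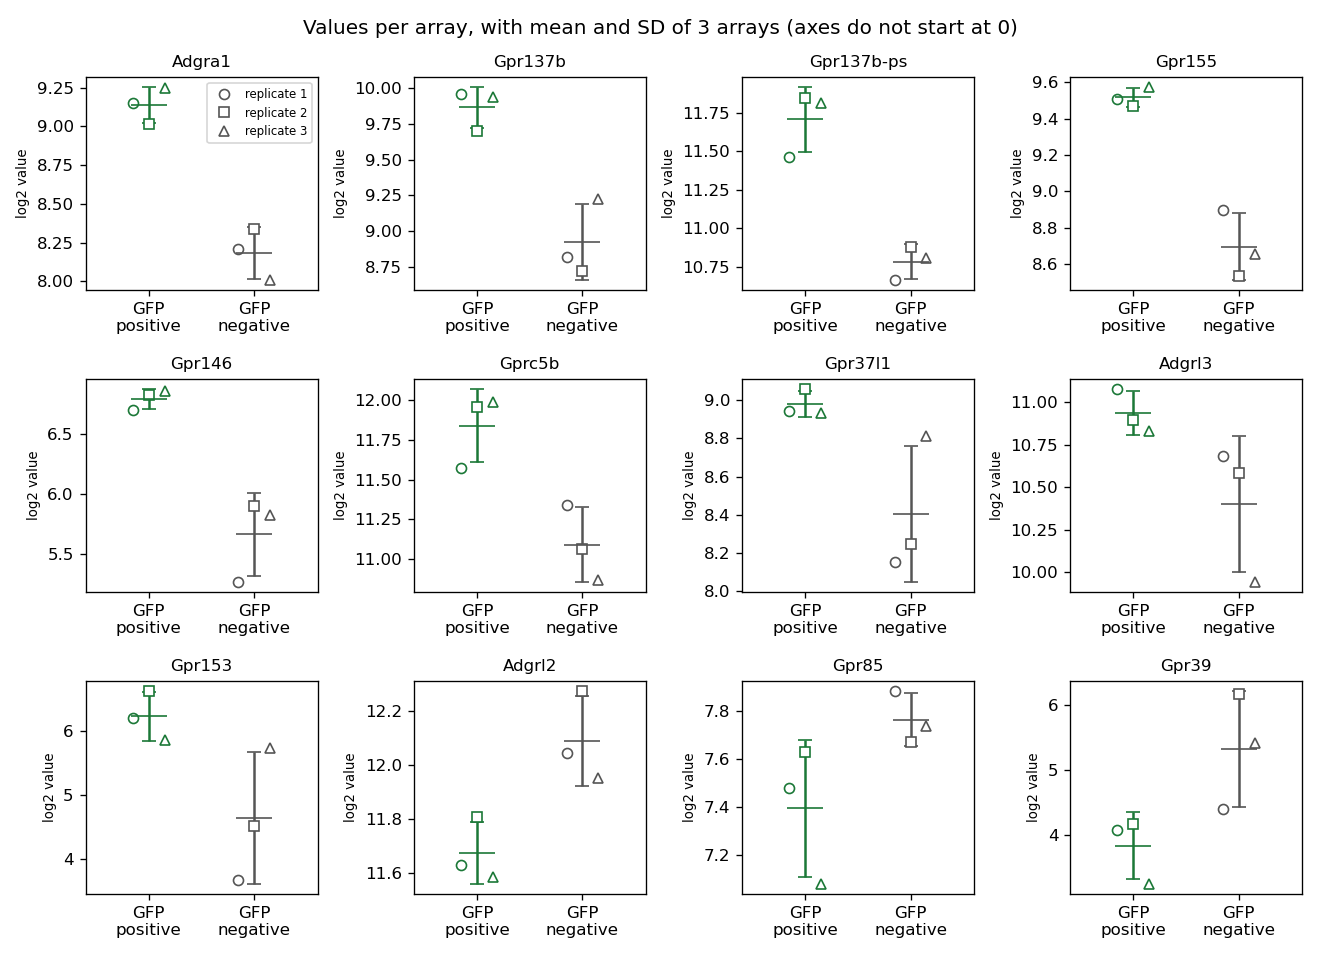
Log2 value (vertical axes, which do not start at 0) of 12 genes on each array, GFP positive in green at left and GFP negative in grey at right, with the symbol giving the replicate number and bars the mean and SD of 3 arrays. All 12 are among the 13 of 35 tested genes whose groups do not overlap (37.1%, against 25.3% over all genes tested). The first 5 are the genes that passed.

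Adgra1, an adhesion receptor of the brain formerly called Gpr123, was the only adhesion receptor that passed. It read 9.15, 9.02 and 9.25 on GFP positive arrays and 8.21, 8.34 and 8.01 on GFP negative arrays, with a gap wider than the range within either group. Adgra1 averaged 9.14 ± 0.116 in GFP positive and 8.18 ± 0.167 in GFP negative cells (SD, n = 3 each). It differed by 0.95 (SE 0.177, 95% interval 0.54 to 1.37) or 1.94-fold (limma adjusted p = 0.0311). All 3 of its probe sets above background were higher, by 0.95 to 1.25, and in a fit of all probe sets the smallest adjusted p was 0.0463. Adgra3, its closest tested relative, read 10.22, 10.22 and 10.03 on GFP positive arrays and 9.91, 9.84 and 10.40 on GFP negative arrays. The Adgra3 groups overlapped (0.11, interval −0.37 to 0.60).

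Over all 25 adhesion receptors on the array 13 were tested, 1 rose, 0 fell, and the median difference was 0.11, against 2.35% higher, 2.11% lower and a median of 0.0049 over all genes tested. The latrophilins, which bind teneurins, neurexins and FLRT proteins on neighbouring cells, differed among themselves in sign. Adgrl3 read 11.08, 10.89 and 10.83 on GFP positive arrays and 10.68, 10.58 and 9.94 on GFP negative arrays, higher on every GFP positive array (0.53, limma adjusted p = 0.297). All 6 of its probe sets above background were positive, from 0.21 to 1.24. Adgrl2, the brightest gene of the set, read 11.63, 11.81 and 11.59 on GFP positive arrays and 12.04, 12.27 and 11.95 on GFP negative arrays, lower on every GFP positive array. Adgrl2 differed by −0.42 (limma adjusted p = 0.274), and by −0.20 at its other probe set above background. Adgrl1 differed by 0.15 and its groups overlapped. None of the 3 passed, and the difference between their differences was not tested.

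The cadherin-type receptors Celsr1, Celsr2 and Celsr3, which orient cells and cilia within a sheet and guide axons, were all tested and none passed. Celsr2 read 11.02, 11.01 and 11.003 on GFP positive arrays and 10.82, 11.03 and 10.38 on GFP negative arrays. It was nearly constant over GFP positive arrays, and the groups overlapped (0.26, interval −0.23 to 0.76). Celsr1 averaged 8.33 ± 0.014 in GFP positive and 8.26 ± 0.17 in GFP negative cells (SD, n = 3 each). Celsr3, the dimmest, read 5.04, 4.62 and 4.52 on GFP positive arrays and 5.05, 5.83 and 4.98 on GFP negative arrays (−0.57, interval −1.22 to 0.09). Of 11 measured planar polarity partners none passed at the adjusted level, and 1 was higher at an unadjusted p under 0.05 (median 0.08). The brightest partner was Dvl1, a signal carrier of Wnt receptors (−0.13, limma adjusted p = 0.764).

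Adgrg1, formerly Gpr56, a receptor for collagen III on radial glia, read 11.28, 11.17 and 11.17 on GFP positive arrays and 10.96, 10.93 and 11.89 on GFP negative arrays. GFP negative replicate 3 alone stood above the GFP positive arrays, so the groups overlapped (−0.05, interval −0.71 to 0.60). Without that array Adgrg1 differed by 0.26 and did not pass (limma adjusted p = 0.273). Adgrg6, formerly Gpr126 and known for its role in Schwann cell myelination, averaged 11.75 ± 0.20 in GFP positive and 11.63 ± 0.40 in GFP negative cells (SD, n = 3 each). Adgrv1, a very large receptor of sensory hair cells, averaged 7.75 ± 0.235 in GFP positive and 7.74 ± 0.275 in GFP negative cells (SD, n = 3 each; interval of the difference −0.50 to 0.52).

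Among the brain angiogenesis inhibitor receptors, Adgrb3, which binds C1q-like proteins at synapses, differed by −0.04 (interval −0.46 to 0.38). Adgrb2 rested on 1 array. It read 8.36, 8.14 and 7.89 on GFP positive arrays and 7.12, 6.999 and 9.10 on GFP negative arrays (0.39, limma adjusted p = 0.779). Without GFP negative replicate 3 Adgrb2 differed by 1.07 and passed (limma adjusted p = 0.0192). Of 14 measured ligands of adhesion receptors none passed, with 2 on each side before adjustment. The 2 higher were Tenm4 (1.88, limma adjusted p = 0.0527) and Nrxn3 (1.29, limma adjusted p = 0.0505). The 2 lower were Lamb1 (−1.08, limma adjusted p = 0.123) and Flrt2 (−0.52, limma adjusted p = 0.178). The brightest ligand was Prnp, the prion protein, a ligand of Adgrg6 (0.26, limma adjusted p = 0.488).

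Gpr146 was the largest of the differences that passed. It is an orphan receptor known from the liver for its effect on blood cholesterol. Gpr146 read 6.70, 6.83 and 6.86 on GFP positive arrays and 5.27, 5.91 and 5.83 on GFP negative arrays, with the groups apart. Gpr146 averaged 6.79 ± 0.084 in GFP positive and 5.67 ± 0.348 in GFP negative cells (SD, n = 3 each). It differed by 1.13 (SE 0.217, 95% interval 0.62 to 1.64) or 2.19-fold (limma adjusted p = 0.0344). It was read from 1 probe set, as the other 3 that name it alone lay at background (means of about log2 2). Its adjusted p was 0.0691 with trend and robust settings, 0.0661 without a filter and 0.0530 in the fit of all probe sets, so the call ends under each of these.

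Gprc5b, a class C orphan receptor, read 11.57, 11.96 and 11.99 on GFP positive arrays and 11.34, 11.06 and 10.87 on GFP negative arrays. The groups did not overlap, and both probe sets were higher (0.75 and 0.71). It missed the threshold (95% interval 0.26 to 1.24, limma adjusted p = 0.103). Gpr37l1, an astrocyte receptor for which prosaposin was proposed as a ligand, read 8.95, 9.06 and 8.93 on GFP positive arrays and 8.15, 8.25 and 8.81 on GFP negative arrays. GFP negative replicate 3 came close to the GFP positive arrays. Gpr37l1 differed by 0.57 (limma adjusted p = 0.218) and passed without that array (0.78, limma adjusted p = 0.0236). Gpr19, an orphan receptor of the brain, differed by 0.45 (limma adjusted p = 0.296) and by 0.61 without that array (limma adjusted p = 0.0481).

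Gpr153 and Gpr39 had the widest differences and did not pass. Gpr153, an orphan of unknown role, read 6.21, 6.63 and 5.86 on GFP positive arrays and 3.67, 4.51 and 5.74 on GFP negative arrays. Its GFP negative arrays spread over more than 2 log2 units, and GFP negative replicate 3 nearly reached the lowest GFP positive array. Gpr153 differed by 1.59 (95% interval 0.43 to 2.76, limma adjusted p = 0.136), and by 2.14 without that array (limma adjusted p = 0.0134). Gpr39, a zinc-sensing receptor, read 4.08, 4.18 and 3.24 on GFP positive arrays and 4.40, 6.17 and 5.42 on GFP negative arrays (−1.49, interval −2.58 to −0.41, limma adjusted p = 0.135). Its GFP positive mean of 3.83 lay under log2 4, so the size depends on the background correction. Without GFP negative replicate 1 Gpr39 differed by −1.96 (limma adjusted p = 0.0494).

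The remaining tested genes did not pass. Gpr85, a conserved brain receptor, was lower on every GFP positive array at its brightest probe set (−0.37), yet its other 2 probe sets above background were positive (0.82 and 0.19), so no direction can be given. Gpr173, of the same family, differed by 0.13. Gpr3, which raises cyclic AMP without a known ligand, read 7.73, 7.503 and 7.57 on GFP positive arrays and 7.17, 7.502 and 7.81 on GFP negative arrays, with the groups overlapping (0.11, interval −0.39 to 0.60). Gpr161, a receptor of the primary cilium that holds back Hedgehog signalling, averaged 8.87 ± 0.33 in GFP positive and 8.79 ± 0.27 in GFP negative cells (SD, n = 3 each; interval −0.47 to 0.64). Of 15 measured ciliary trafficking genes none passed, 1 was higher at an unadjusted p under 0.05, and the brightest, Ptch1, the Hedgehog receptor, differed by 0.33 (limma adjusted p = 0.426). Gpr135 differed by 0.27, Gpr162 by 0.20, Gpr171 by 0.00 and Gpr75 by −0.34, all with intervals that span 0.

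**Figure D4:**
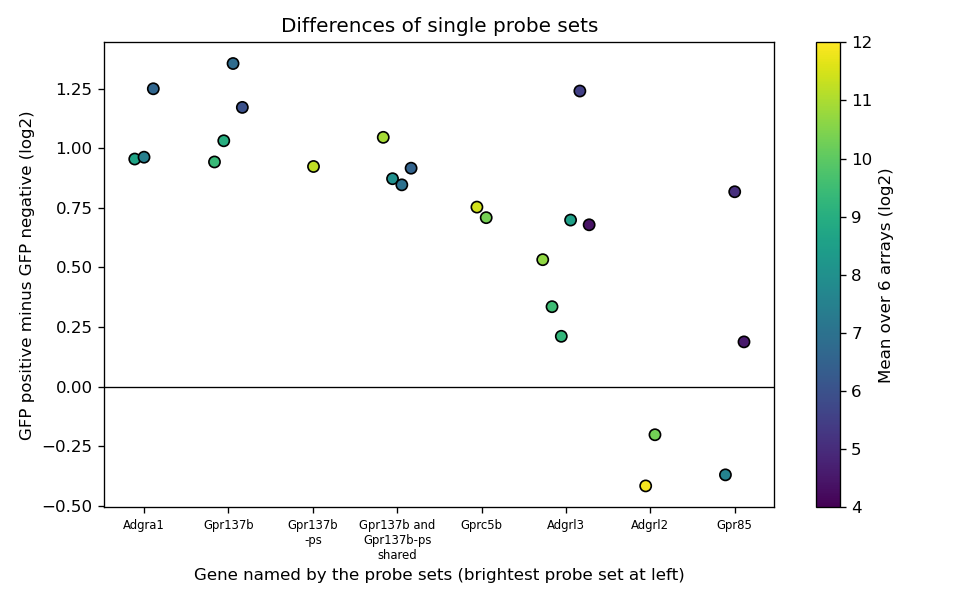
Difference of GFP positive minus GFP negative (log2, vertical axis) at single probe sets above background, coloured by the mean over 6 arrays and grouped by the gene or genes they name. All probe sets of Adgra1, Gpr137b, Gprc5b and Adgrl3 lie above 0, both of Adgrl2 below it, and those of Gpr85 on both sides.

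Among the 35 tested genes the groups did not overlap for 13 (37.1%), with GFP positive arrays above in 10 and below in 3. Over all genes tested this was 25.3%, with 13.8% above and 11.5% below. An exact 2-sided permutation test gave p = 0.1 for each of these 13, the smallest that 3 against 3 arrays allow. Differences were positive for 25 of 35 genes and negative for 10, with a median of 0.13, against 50.5% positive over all genes tested. The median size of a difference was 0.26 for these genes and 0.26 for all genes tested. For 25 of the 35 the 95% interval spans 0. Of 11 genes with several probe sets above background, 3 (Adgrg1, Gpr107 and Gpr85) had probe sets of opposite sign.

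The G protein subunits that such receptors act on mostly did not pass, with an exception in each direction. Of 11 measured alpha subunits 1 rose and 1 fell, where 2.35% of all genes tested were higher and 2.11% lower. Gnao1, the alpha subunit Go of brain and neurons, averaged 9.40 ± 0.042 in GFP positive and 7.60 ± 0.73 in GFP negative cells (SD, n = 3 each), 3.47-fold higher (1.80, limma adjusted p = 0.0347). Gnai1, an inhibitory subunit that lowers cyclic AMP, averaged 8.60 ± 0.23 in GFP positive and 9.71 ± 0.35 in GFP negative cells (SD, n = 3 each), a difference of −1.11 (limma adjusted p = 0.0463). Both calls were lost when any array other than GFP negative replicate 3 was left out (limma adjusted p up to 0.137 for Gnao1 and 0.178 for Gnai1).

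None of the 8 measured beta and gamma subunits passed (1 higher at an unadjusted p under 0.05), and the brightest was Gnb1 (0.09). None of 10 measured RGS proteins, which end G protein signals, passed, with 1 higher and 2 lower at the unadjusted level and a median of −0.43. The brightest of them, Rgs19, differed by −0.81 (limma adjusted p = 0.139). None of 6 receptor kinases and arrestins, which silence active receptors, passed, with 0 at the unadjusted level, and the brightest was Grk3 (0.51, limma adjusted p = 0.417). A broad list of ligands of other receptors is not limited to ligands of the genes named here. Among its 7 measured genes none passed, with 1 higher and 1 lower at the unadjusted level. These were Apoe (1.58, limma adjusted p = 0.0609) and Dhh, a Hedgehog ligand (−1.09, limma adjusted p = 0.0597). Whether either acts on a receptor of this set was not tested. The brightest, the growth factor Ptn, differed by 0.22.

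The calls were lost in most fits with 1 array left out, while the differences moved little. Leaving out each array in turn, the limma adjusted p ran from 0.0211 to 0.160 for Adgra1, from 0.0222 to 0.155 for Gpr146 and from 0.0317 to 0.214 for Gpr155. For Gpr137b it ran from 0.0125 to 0.206 and for Gpr137b-ps from 0.0263 to 0.196. The differences ranged between 0.87 and 1.03 for Adgra1, 0.93 and 1.25 for Gpr146, 0.74 and 0.92 for Gpr155, 0.84 and 1.09 for Gpr137b, and 0.86 and 1.05 for Gpr137b-ps. Without GFP negative replicate 3 the number of higher genes was 9, with Adgrb2, Gpr153, Gpr19 and Gpr37l1 added, and without any other 1 array it was 0, with 7 or 8 higher before adjustment. The counts over all genes tested also changed widely with the array left out, as the last section gives. Gain and loss of calls was thus not limited to the receptor genes.

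**Figure D5:**
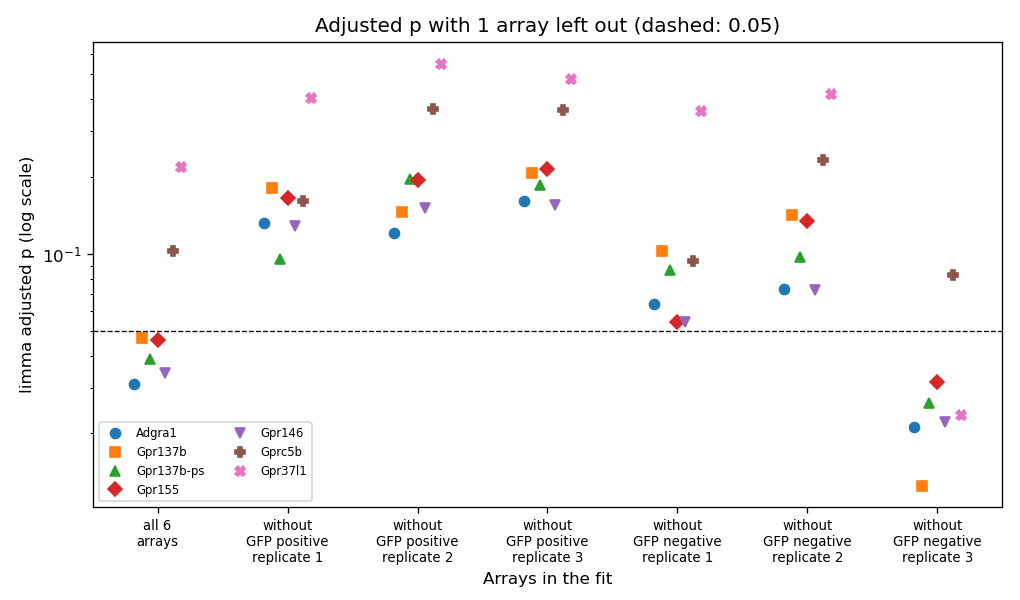
Limma adjusted p (vertical axis, log scale) of 7 genes with all 6 arrays and with 1 array left out in turn (horizontal axis), the dashed line marking 0.05. The 5 genes that passed with all arrays lie above the line in every fit but the one without GFP negative replicate 3, where Gpr37l1 passed too.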

How the data were processed

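The deposited log2 values come from the authors' use of GCRMA, as the submitters' processing notes name it (version not given in the sources used here). This method removes a background modelled on the bases of each probe, brings the arrays to 1 distribution and summarises each probe set, so folds near background depend on that model. Total RNA was taken with a spin-column kit and biotin-labelled, per the labels' protocols. Of 45101 probe sets 34945 name 1 gene in the platform annotation, and 5 further probe sets that name a receptor gene together with another gene were left out of the tests. Genes with at least 3 of 6 arrays at log2 4 or more entered lmFit and eBayes of limma 3.58.1 (R 4.3.3), without covariates, GFP positive minus GFP negative, with Benjamini-Hochberg adjustment over 10531 genes and a threshold of 0.05. The fit was tested on simulated data. The number of arrays limits the precision.

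Named were all receptor genes past the threshold, the 10 with the largest difference each way, the 10 brightest, the 2 brightest tested per role group and, per partner list, those past the threshold or else the brightest. The members and lists were chosen with earlier results of these data known. The genes that were not tested, and the other tested members, were named so that every member is accounted for. Gpr183, Gpr37 and the genes of the ligand lists past the unadjusted level were described after their values were seen. Alternatives covered the filter, normalization, choice of probe sets, variance model, replicate block, leaving out each array, and a minimum fold of 2.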

Additional observations from a re-analysis of the deposited data

How the results depend on the processing

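The 5 receptor genes higher in GFP positive cells became 3 without a filter, 2 with all probe sets, 3 without probe sets of cross-hybridising suffix, 8 with array weights, 1 (Gpr146) with a 2-fold minimum, 0 with the replicate block (7 at an unadjusted p under 0.05), 0 with the 3′ to 5′ ratio of control transcripts as a covariate, an alternative chosen after seeing the data (7 unadjusted), and 0 to 9 with 1 array left out. The 0 lower became 1 (Celsr3) with array weights and 0 to 1 with 1 array left out. The array weights were uneven, so that fit leaned on GFP positive replicate 2 (weight 8.35). GFP negative replicate 3 had a weight of 0.152, and the other arrays had weights of 0.762 to 1.22. Of all genes 248 were higher and 222 lower. These became 1051 and 603 with array weights, 19 and 8 with the replicate block, 9 and 0 with that covariate, where 563 were lower unadjusted, and 1 to 801 and 0 to 443 with 1 array left out. Without a filter 101 were lower. The replicate numbers showed no sign of pairing the arrays: deviations of same-numbered arrays correlated at −0.25, 0.05 and −0.50 across genes. The causes of these changes were not tested. Genes whose sign turned had not passed in the main comparison. These were Adgrb3 (0.00097 with a common median, 0.0920 with the covariate), Adgrg1 (0.11 with all probe sets, 0.0266 with their mean, 0.16 with array weights), Adgrg6 (−0.0600 with array weights), Gpr107 (−0.0633 with the mean of probe sets), Gpr108 (0.0036 with a common median, 0.0783 with the covariate), Gpr89 (−0.0128 with the covariate) and Gpr171 (0.0297 with quantile normalization, 0.0422 with a common median, 0.63 with the covariate). Gpr85 turned to 0.82 with all probe sets and without cross-hybridising suffixes, and to 0.17 with the mean of probe sets. Gnb1 turned to −0.15 with all probe sets and −0.0130 with their mean. With 1 array left out, differences ran from −0.13 to 0.0582 for Adgrb3, −0.22 to 0.26 for Adgrg1, −0.11 to 0.26 for Adgrg6, −0.14 to 0.14 for Adgrv1, −0.36 to 0.27 for Gpr108, −0.14 to 0.45 for Gpr137, −0.0654 to 0.27 for Gpr161, −0.43 to 0.57 for Gpr162, −0.51 to 0.65 for Gpr171, −0.325 to 0.0759 for Gpr180, −0.0546 to 0.26 for Gpr3 and −0.0879 to 0.31 for Gpr89.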
